A study of Mus musculus with 6 samples.

Results

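The genes described here are 10 genes of AP-1 and the immediate-early response, of 32285 genes in the deposited tables: Fos, Fosb, Fosl2, Jun, Junb, Jund, Egr1, Zfp36, Ier2 and Plk3. They were taken by symbol, and each symbol matched 1 row. They were chosen by measured values, with their BrM and MFP levels in these libraries already known, so for the 10 genes that comparison is a description and carries no test. The data are single-cell RNA-seq libraries (10x Genomics 3' version 3) of immune cells from tumours of a brain-metastatic breast cancer line grown in female C57BL/6J mice of 10 to 12 weeks. BrM libraries came from tumours in the brain and MFP libraries from tumours in the mammary fat pad, the orthotopic site, with 3 libraries for each site. Tumours of both sites were digested with enzymes and sorted for nucleated, viable cells carrying CD45, the surface protein of leukocytes. Nothing in the labels ties the 3 libraries of a site to different mice. A p-value therefore measures the spread between libraries alone, and that spread may be technical.

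Fos, Fosb and Fosl2 belong to the FOS family and Jun, Junb and Jund to the JUN family of basic leucine zipper proteins. A FOS protein pairs with a JUN protein to form AP-1, a transcription factor that T cells use together with NFAT after receptor signalling and that myeloid cells use after innate stimuli. Egr1 is a zinc finger factor induced by the MAP kinase pathway, Zfp36 encodes tristetraprolin, which destabilises AU-rich cytokine and immediate-early mRNAs, Ier2 is a nuclear immediate-early protein and Plk3 is a stress-inducible polo-like kinase. Their transcripts appear within minutes of a stimulus and are short-lived, and enzymatic tissue dissociation is itself known to induce them.

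The promoters were searched for elements through which such genes are known to be switched on quickly. Not every promoter window held a match to the motifs searched, and those of Jun and Jund held 0. Related sequences that depart from these motifs were not searched. Promoter windows from RefSeq (build GRCm38.p6) were found for 8 of the 10 genes, all but Egr1 and Ier2. The windows cover the 250 bases before the annotated start, 5′ to 3′ on the gene's strand, and bases inside an annotated exon are not printed. Capitals mark the letters of a motif match. The windows are Fos at chr12:85473640-85473889 on the plus strand, Fosb at chr7:19310052-19310295 on the minus strand and Junb at chr8:84978749-84978998 on the minus strand.
Fos: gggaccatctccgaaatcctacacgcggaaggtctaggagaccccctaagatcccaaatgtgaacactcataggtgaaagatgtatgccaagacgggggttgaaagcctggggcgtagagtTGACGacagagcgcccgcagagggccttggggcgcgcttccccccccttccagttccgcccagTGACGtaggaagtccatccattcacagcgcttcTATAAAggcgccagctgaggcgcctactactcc
Fosb: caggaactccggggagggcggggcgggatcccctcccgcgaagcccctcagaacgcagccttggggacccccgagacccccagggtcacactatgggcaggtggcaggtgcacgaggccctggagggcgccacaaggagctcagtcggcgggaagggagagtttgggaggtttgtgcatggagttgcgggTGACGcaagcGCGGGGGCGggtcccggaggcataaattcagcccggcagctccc
Junb: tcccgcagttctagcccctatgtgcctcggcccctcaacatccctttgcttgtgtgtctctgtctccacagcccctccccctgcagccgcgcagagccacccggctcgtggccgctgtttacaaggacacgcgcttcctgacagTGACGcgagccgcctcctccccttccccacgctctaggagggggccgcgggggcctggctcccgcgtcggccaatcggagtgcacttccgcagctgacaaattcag
In Fos the capitals are the half-site TGACG of the cAMP response element, at bases -129 to -125 and -66 to -62, and the TATA box TATAAA at -33 to -28. In Fosb they are the half-site at -60 to -56 and the EGR site GCGNGGGCG, the sequence that Egr1 binds, at -50 to -42. Junb held the half-site at -106 to -102. The Zfp36 window lies in an annotated exon and held an EGR site and a CArG box, the element bound by serum response factor, at -58 to -49:
Zfp36 CArG box: CCATAAAAGG

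Searched on both strands over 27025 promoter windows of the same length, the half-site was in 17.9% of all windows and in 4 of the 8 found here (Fos, Fosb, Junb and Plk3). It is contained in the full cAMP response element TGACGTCA, which was in 1.62% of all windows and in 0 of the 8. The EGR site was in 4.65% of all windows and in 3 of the 8 (Fosb, Fosl2 and Zfp36). The Fosl2 window, like that of Zfp36, lies in an annotated exon. The Jund window ends at chr8:70697738, while a second annotation (GENCODE) starts the gene at 70698949. The 0 matches for Jund thus do not describe the bases next to that second start. The CArG box was in 378 and the TATA box in 3504 of the 27025 windows, and each was in 1 of the 8. The AP-1 site TGANTCA was in 6.87% of all windows and in 0 of the 8. These matches describe letters in a window and not occupied sites.

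After filtering, 46891 cells remained. The 6 libraries fell by total UMIs (unique molecules counted) into a lower set, BrM 1, MFP 1 and MFP 2 with 50692794 to 54976396 UMIs, and a higher set, BrM 2, BrM 3 and MFP 3 with 60699618 to 70944735 UMIs. The sets also differed in composition: macrophage-like cells numbered 40, 44 and 14 in the lower set and 1820, 1694 and 2182 in the higher set. Folds within each set are therefore given beside the pooled ones for some of the genes, and for several genes they differed in size between the sets. Cells were placed in 14 classes by fixed numbers of marker UMIs, which placed 31060 cells (66.2%), and the UMIs of a class were summed per library. Ptprc, which encodes CD45, was found in each of the 14 classes, at 211 to 1555 CPM. Levels are UMIs of the gene per 1000000 UMIs of the class (CPM). In such sums, fewer cells carrying a transcript and less transcript per cell cannot be told apart, and a per-cell view follows below.

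In CD4 conventional T-like cells (3719 cells), 9 of the 10 genes were lower in every BrM library than in any MFP library. Non-overlap in that direction was found for 16.4% of all 9781 genes tested. The tenth gene, Ier2, overlapped. Fos had 80.5, 113 and 112 CPM in BrM 1, 2 and 3, against 274, 269 and 234 CPM in MFP 1, 2 and 3. Fosb had 54.6, 75.3 and 78.0 CPM in BrM 1, 2 and 3, against 252, 271 and 259 CPM in MFP 1, 2 and 3. Every BrM value of these FOS family genes lay far under the lowest MFP value. Fosl2, a FOS family member that is induced more slowly, had 178, 289 and 263 CPM in BrM 1, 2 and 3, against 334, 381 and 436 CPM in MFP 1, 2 and 3, with no overlap between the sites. The log2 fold changes, BrM over MFP, were -1.26 (SE 0.17) for Fos, -1.82 (SE 0.16) for Fosb and -0.55 (SE 0.18) for Fosl2. For Fos it was -1.71 within the lower totals and -0.87 within the higher totals. For Fosb it was -2.22 within the lower totals and -1.56 within the higher totals. Since neither gene overlapped between the sites, the direction within each set followed from the values above and adds nothing to them.

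Of the JUN family, Jun had 126, 104 and 79.7 CPM in BrM 1, 2 and 3, against 218, 197 and 209 CPM in MFP 1, 2 and 3. Junb, which T cell receptor signals induce, had 2121, 2412 and 2439.9 CPM in BrM 1, 2 and 3, against 3442, 3785 and 3105 CPM in MFP 1, 2 and 3. Jund, which is expressed in resting cells too, had 716, 652 and 803 CPM in BrM 1, 2 and 3, against 1201, 1201 and 941 CPM in MFP 1, 2 and 3. The 3 genes were lower in each BrM library than in each MFP library, with smaller folds than Fos and Fosb: -0.89 (SE 0.18) for Jun, -0.46 (SE 0.14) for Junb and -0.52 (SE 0.16) for Jund on the log2 scale. For Junb the fold was -0.73 within the lower totals and -0.17 within the higher totals. For Jund it was -0.71 within the lower totals and -0.18 within the higher totals.

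Egr1 had 75.3, 58.3 and 62.0 CPM in BrM 1, 2 and 3, against 101, 99.1 and 215 CPM in MFP 1, 2 and 3. Its MFP values were spread, with MFP 3 above the other MFP libraries. Zfp36 had 82.1, 76.7 and 82.6 CPM in BrM 1, 2 and 3, against 152, 145 and 175 CPM in MFP 1, 2 and 3. Plk3 had 42.8, 44.8 and 42.8 CPM in BrM 1, 2 and 3, against 86.9, 78.6 and 75.2 CPM in MFP 1, 2 and 3. Both were tight within a site and apart between sites, with log2 folds of -0.85 (SE 0.12) and -0.79 (SE 0.14). Ier2 had 480.3, 316 and 405 CPM in BrM 1, 2 and 3, against 509, 549.5 and 432 CPM in MFP 1, 2 and 3, and here BrM 1 lay above MFP 3. The log2 folds of Egr1 and Ier2 were -0.91 (SE 0.26) and -0.20 (SE 0.18). The Egr1 fold was -0.37 within the lower totals and -1.64 within the higher totals.

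Across all 9781 genes tested in this class, edgeR's quasi-likelihood test called 1 gene (0.0102%) at an adjusted p below 0.05, and 1713 genes had an unadjusted p below 0.05. The called gene was Fosb, and since its contrast was known when the gene was picked, nothing is read from that call. The median log2 fold of the 10 genes was -0.82, beside 0.02 for all genes tested. No gene of the 10 changed sign in any of 150 combinations of gene and alternative setting. For the 9 genes without overlap a change of sign was hardly possible, so nothing is read from that count.

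**Figure D1:**
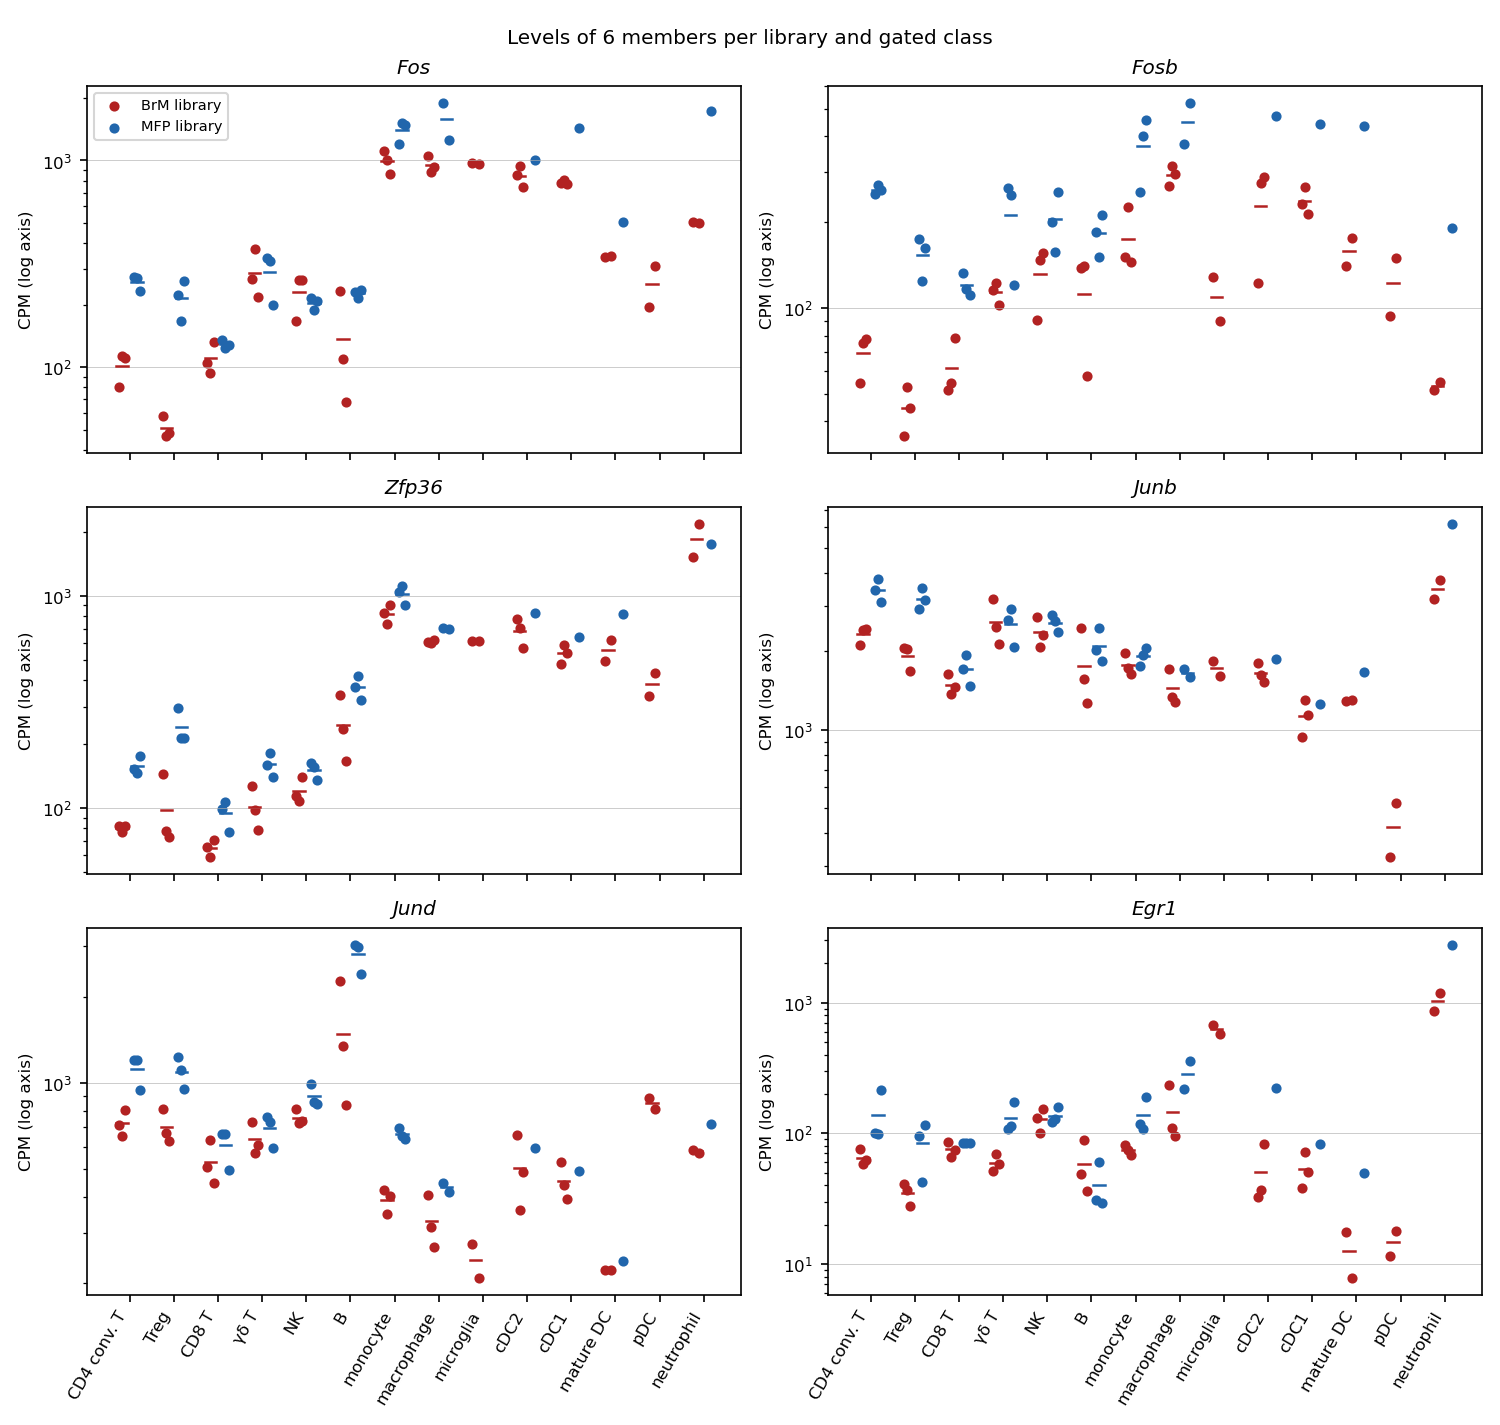
CPM of Fos, Fosb, Zfp36, Junb, Jund and Egr1 (log axis) in each class with at least 20 cells in a library, with 1 point per library (BrM left of MFP) and a line at the mean where a site has 2 or more libraries. In CD4 conventional T-like and Treg-like cells the BrM points of each of these genes lie below the MFP points.

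In Treg-like cells, gated by the regulatory T cell factor Foxp3 (684 cells), the 10 genes were each lower in every BrM library than in any MFP library, beside 19.6% of all 6490 genes tested. Fos had 58.2, 46.6 and 48.5 CPM in BrM 1, 2 and 3, against 223, 168 and 261 CPM in MFP 1, 2 and 3. Fosb had 35.5, 52.9 and 44.7 CPM in BrM 1, 2 and 3, against 175, 124 and 162 CPM in MFP 1, 2 and 3. The BrM values of both were within a narrow range and far under the lowest MFP value. Zfp36 had 144, 78.1 and 72.7 CPM in BrM 1, 2 and 3, against 295, 213 and 214 CPM in MFP 1, 2 and 3. Jun had 108, 52.9 and 87.6 CPM in BrM 1, 2 and 3, against 162, 173 and 207 CPM in MFP 1, 2 and 3. Junb had 2056, 2035 and 1685 CPM in BrM 1, 2 and 3, against 2921, 3508 and 3141 CPM in MFP 1, 2 and 3. For these genes the gap between the sites was smaller, and BrM 1 was the highest BrM library for each of them. Egr1 had 40.7, 36.5 and 28.0 CPM in BrM 1, 2 and 3, against 95.2, 42.0 and 116 CPM in MFP 1, 2 and 3, and BrM 1 and MFP 2 lay next to each other.

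The log2 folds in Treg-like cells were -1.97 (SE 0.21) for Fos, -1.74 (SE 0.23) for Fosb, -1.17 (SE 0.25) for Zfp36, -1.01 (SE 0.24) for Jun and -0.64 (SE 0.14) for Junb. For Fos the fold was -1.73 within the lower totals and -2.25 within the higher totals. The other folds were -1.11 for Egr1, -0.86 for Fosl2, -0.84 for Plk3, -0.56 for Jund and -0.44 for Ier2. Of the 10 genes 6 passed the adjusted threshold in the lower direction, where 1.54% of all genes did. That count is given without being read as support, and it ranged between 0 with stricter gates and 9 without BrM 1 over the alternatives. It was 2 without MFP 1, without BrM 2, without BrM 3 or without MFP 3, and 3 without MFP 2. Over all genes, leaving out single libraries gave between 5 and 1156 calls, so these counts moved with a changing background. No gene changed sign in 150 combinations of gene and setting. As no gene overlapped between the sites, that outcome was nearly fixed in advance. Whether the BrM to MFP difference is larger in Treg-like than in CD4 conventional T-like cells was not tested.

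Cells shed RNA into the droplet fluid, and myeloid cells, which carry much Fos, were more numerous in the higher set. Lyz2, the lysozyme gene of myeloid cells, served as the yardstick in T cells, which should lack it. In CD4 conventional T-like cells Lyz2 had 3.68, 83.9 and 88.9 CPM in BrM 1, 2 and 3, against 39.6, 3.49 and 75.2 CPM in MFP 1, 2 and 3, so that the 3 libraries of the higher set stood out, and the MFP 1 value came from few cells. With Lyz2 as the tracer and the Fos to Lyz2 ratio of the monocyte-like and macrophage-like cells of the same library, free RNA would carry Fos at 0.463, 13.5 and 12.0 CPM in BrM 1, 2 and 3, against 4.39, 0.242 and 17.4 CPM in MFP 1, 2 and 3. These levels were under the measured Fos levels of the class in each library. At full depth the share of cells with a Fos UMI was 23.5, 34.1 and 33.0% in BrM 1, 2 and 3, against 49.1, 43.8 and 47.8% in MFP 1, 2 and 3. The share with a Lyz2 UMI was 2.43, 34.9 and 36.8% in BrM 1, 2 and 3, against 3.62, 1.77 and 36.7% in MFP 1, 2 and 3. In BrM 2 and BrM 3 the Fos share was no higher than the Lyz2 share, so the Fos-positive share in those libraries is not read as the share of cells expressing Fos. In macrophage-like cells Lyz2 was above Fos, from 3051 against 1902 CPM in MFP 1 to 6203 against 928 CPM in BrM 3. In neutrophil-like cells it was above Fos in BrM 2 and BrM 3. In those of MFP 3 it was below, at 770 against 1735 CPM. Neutrophil-like cells did not enter the ratio above, so the Fos that they shed is not covered by it. The other myeloid markers followed the same sets only in part. The sum of all 15 markers of the myeloid gates did not follow them. In CD4 conventional T-like cells it was 806, 631 and 443 CPM in BrM 1, 2 and 3. In MFP 1, 2 and 3 it was 295, 363 and 403 CPM. In Treg-like cells it was 416, 602 and 438 CPM in BrM 1, 2 and 3, against 449, 536 and 639 CPM in MFP. The defining markers among them did follow the sets. Summed over 6 defining markers of macrophages and neutrophils (C1qa, C1qb, C1qc, Csf1r, S100a8 and S100a9), the level in CD4 conventional T-like cells was 8.03, 188 and 178 CPM in BrM 1, 2 and 3, against 6.05, 7.39 and 196 CPM in MFP 1, 2 and 3. S100a8 and S100a9 were at 0 in MFP 1. In Treg-like cells the sum was 4.64, 129 and 144 CPM in BrM 1, 2 and 3, against 3.66, 1.61 and 214 CPM in MFP 1, 2 and 3, and 5 of the 6 were at 0 in MFP 1 and in MFP 2. Their part in the differences of the 10 genes was not tested.

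To compare cells at 1 depth, each cell was thinned to 2000 UMIs, and shallower cells were left out (7 to 19 CD4 conventional T-like cells per library). At that depth the share of CD4 conventional T-like cells with a Fos UMI was 12.4, 18.5 and 17.4% in BrM 1, 2 and 3, against 30.6, 28.4 and 27.0% in MFP 1, 2 and 3. The share with a Lyz2 UMI was 0.876, 18.1 and 17.6% in BrM 1, 2 and 3, against 1.13, 0.634 and 19.0% in MFP 1, 2 and 3. In the lower set, where Lyz2 was rare, Fos was found in fewer cells of BrM 1 than of MFP 1 or MFP 2. The Fos-positive cells held 1.59, 1.24 and 1.44 Fos UMIs per cell in BrM 1, 2 and 3, against 2.06, 2.15 and 2.17 Fos UMIs per cell in MFP 1, 2 and 3. Both the share of Fos-positive cells and the UMIs per positive cell were lower in every BrM library than in any MFP library. Fosb was found in 8.85, 11.3 and 11.8% in BrM 1, 2 and 3, against 30.8, 29.9 and 26.0% in MFP 1, 2 and 3, with 1.43, 1.18 and 1.42 UMIs per positive cell in BrM 1, 2 and 3, against 1.90, 1.96 and 1.94 UMIs per positive cell in MFP 1, 2 and 3. Junb was found in nearly all cells of both sites, 90.4, 95.2 and 97.1% in BrM 1, 2 and 3, against 97.2, 96.4 and 94.5% in MFP 1, 2 and 3. Its difference lay in the UMIs per positive cell, 5.03, 5.37 and 5.41 UMIs in BrM 1, 2 and 3, against 7.63, 8.41 and 6.75 UMIs in MFP 1, 2 and 3.

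The genes were also counted together within each cell. CD4 conventional T-like cells with at least 5 of the 10 genes detected at 2000 UMIs made up 16.7, 15.7 and 19.6% in BrM 1, 2 and 3, against 41.4, 39.1 and 37.0% in MFP 1, 2 and 3. In Treg-like cells the share was 14.5, 13.5 and 15.8% in BrM 1, 2 and 3, against 43.4, 36.4 and 41.5% in MFP 1, 2 and 3. In CD8 T-like cells it was 19.6, 12.9 and 16.0% in BrM 1, 2 and 3, against 25.6, 23.9 and 20.2% in MFP 1, 2 and 3, a smaller gap with the sites still apart. In NK-like cells it was 42.7, 38.3 and 47.3% in BrM 1, 2 and 3, against 45.1, 40.4 and 46.5% in MFP 1, 2 and 3, and the sites overlapped. Among CD4 conventional T-like cells with a Fos UMI, Fosb was found in 19.7, 15.2 and 9.86% in BrM 1, 2 and 3, against 51.9, 54.3 and 42.6% in MFP 1, 2 and 3. Among those without one, it was found in 7.31, 10.4 and 12.2% in BrM 1, 2 and 3, against 21.6, 20.2 and 19.9% in MFP 1, 2 and 3. Fosb was found more often in cells with a Fos UMI than without one in each MFP library, in BrM 1 and in BrM 2, but not in BrM 3; BrM 2 and BrM 3 had 46 and 71 Fos-positive cells.

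**Figure D2:**
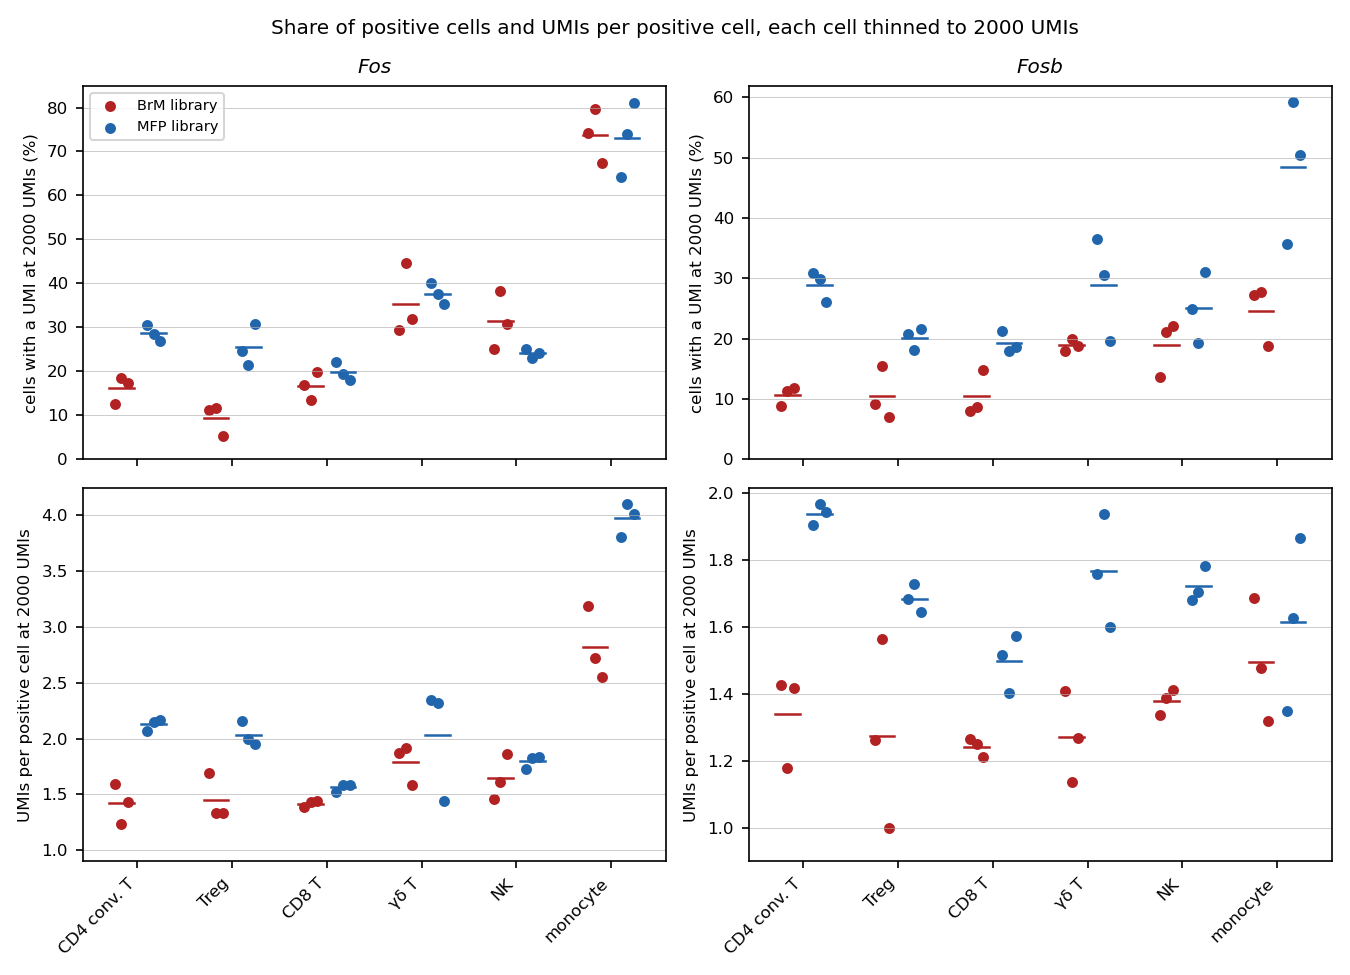
Share of cells with a UMI (percent) and UMIs per positive cell for Fos and Fosb, each cell thinned to 2000 UMIs, with 1 point per library (BrM left of MFP) and a line at the mean in 6 classes. In CD4 conventional T-like cells both quantities are lower in all BrM libraries, and in NK-like cells the Fos share of BrM 1 lies beside those of the MFP libraries.

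In CD8 T-like cells (5047 cells) the genes differed less. Fosb had 51.6, 54.7 and 78.6 CPM in BrM 1, 2 and 3, against 132, 117 and 111 CPM in MFP 1, 2 and 3. Zfp36 had 65.6, 58.7 and 70.5 CPM in BrM 1, 2 and 3, against 99.2, 107 and 76.9 CPM in MFP 1, 2 and 3. For these and for Plk3 the BrM values lay below the MFP values, which makes 3 of 10 genes beside 7.95% of all 10507 genes tested. Fos had 105, 93.6 and 133 CPM in BrM 1, 2 and 3, against 135, 124 and 129 CPM in MFP 1, 2 and 3, and the sites overlapped. The log2 folds were -0.92 (SE 0.18) for Fosb, -0.50 (SE 0.17) for Zfp36, -0.27 (SE 0.12) for Plk3 and -0.18 (SE 0.15) for Fos. The Fosb fold was -1.20 within the lower totals and -0.68 within the higher totals. The other 6 folds were between -0.16 and -0.04. In this class edgeR called 0 genes (0%), 520 genes had an unadjusted p below 0.05 and DESeq2 called 1.

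In gamma-delta T-like cells (1619 cells) Egr1 had 51.6, 68.8 and 58.3 CPM in BrM 1, 2 and 3, against 108, 114 and 173 CPM in MFP 1, 2 and 3. Zfp36 had 126, 98.1 and 78.6 CPM in BrM 1, 2 and 3, against 159.6, 181 and 140.4 CPM in MFP 1, 2 and 3. These were the 2 genes of the 10 whose sites did not overlap, beside 7.40% of all 7849 genes tested. Fosb had 116, 122 and 103 CPM in BrM 1, 2 and 3, against 264, 249 and 121 CPM in MFP 1, 2 and 3, where BrM 2 lay just above MFP 3. Fos had 269, 372 and 219 CPM in BrM 1, 2 and 3, against 338, 327 and 199.7 CPM in MFP 1, 2 and 3, with full overlap. The log2 folds were -1.20 (SE 0.22) for Egr1, -0.72 (SE 0.19) for Zfp36, -0.99 (SE 0.24) for Fosb and -0.09 (SE 0.23) for Fos. Within the sets, Egr1 was -1.19 within the lower totals and -1.51 within the higher totals, while Fos was -0.39 within the lower totals and 0.49 within the higher totals. Egr1 was the 1 gene of the 10 past the adjusted threshold, where 0.331% of all genes were lower.

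In NK-like cells (9015 cells), gated by natural killer markers without Cd3d or Cd3e, the 10 genes had a median log2 fold of -0.08. The gate summed Ncr1, Klrb1c, Klre1 and Eomes, so cells without Eomes could enter this class. Fosb had 91.0, 148 and 156 CPM in BrM 1, 2 and 3, against 200.3, 157 and 256 CPM in MFP 1, 2 and 3. BrM 3 and MFP 2 nearly met. Jund had 814, 722 and 735 CPM in BrM 1, 2 and 3, against 995, 859 and 842 CPM in MFP 1, 2 and 3. Fosb and Jund were the 2 genes with no overlap, beside 10.1% of all 10627 genes tested. Fos had 167, 266 and 265 CPM in BrM 1, 2 and 3, against 217, 189.8 and 208 CPM in MFP 1, 2 and 3, so that BrM 2 and BrM 3 were the highest libraries and BrM 1 the lowest. Its pooled log2 fold of 0.21 (SE 0.19) combined opposite directions, -0.29 within the lower totals and 0.43 within the higher totals. Fosb was -0.99 within the lower totals and -0.67 within the higher totals, lower in BrM in both. The share of Fos-positive NK-like cells at 2000 UMIs was 25.2, 38.3 and 30.8% in BrM 1, 2 and 3, against 25.1, 22.9 and 24.1% in MFP 1, 2 and 3. The share with a Lyz2 UMI was 0.773, 17.7 and 27.5% in BrM 1, 2 and 3, against 1.50, 0.794 and 17.8% in MFP 1, 2 and 3. In BrM 3 the Fos share was little above the Lyz2 share, so no difference between the sites is read from these shares. No gene was called in this class by edgeR (0%), 912 genes had an unadjusted p below 0.05 and DESeq2 called 30.

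**Figure D3:**
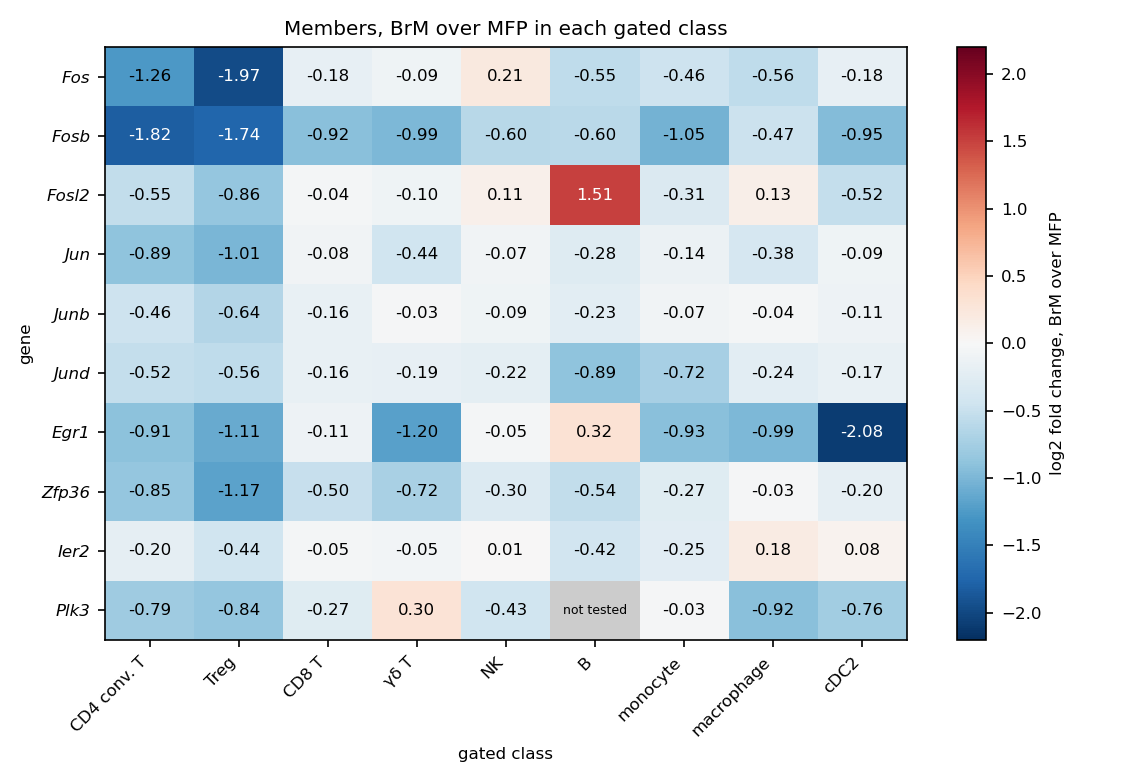
Heat map of the log2 fold change, BrM over MFP, of the 10 genes in 9 classes (edgeR, summed UMIs per library); blue is lower and red higher in BrM, and Plk3 was not tested in B-like cells. The CD4 conventional T-like and Treg-like columns hold negative values for each gene, from -0.20 to -1.97.

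In B-like cells (1013 cells) Jund had 2271, 1347 and 835 CPM in BrM 1, 2 and 3, against 3039, 2983 and 2408 CPM in MFP 1, 2 and 3. Fosb had 139, 141 and 57.6 CPM in BrM 1, 2 and 3, against 185, 151 and 212 CPM in MFP 1, 2 and 3. These 2 of the 9 genes tested did not overlap, beside 7.66% of all 4987 genes. Fosl2 went the other way, with 25.6, 109.7 and 101 CPM in BrM 1, 2 and 3, against 25.7, 16.0 and 35.3 CPM in MFP 1, 2 and 3, where BrM 2 and BrM 3 stood above the rest and BrM 1 did not. Its pooled log2 fold of 1.51 (SE 0.54) thus rested on 2 libraries with 55 and 67 B-like cells. No gene was called in B-like cells (0%) by edgeR or by DESeq2, and 373 genes had an unadjusted p below 0.05.

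Monocyte-like cells (1255 cells) carried more Fos and Zfp36 than lymphoid cells in both sites. Fos had 1110.2, 1003 and 860.3 CPM in BrM 1, 2 and 3, against 1202, 1509 and 1485 CPM in MFP 1, 2 and 3. Fosb had 151, 227 and 145 CPM in BrM 1, 2 and 3, against 255, 402 and 458 CPM in MFP 1, 2 and 3. Egr1 had 82.0, 74.8 and 68.3 CPM in BrM 1, 2 and 3, against 118, 108 and 189 CPM in MFP 1, 2 and 3. With Jund, at 423, 349 and 402 CPM in BrM 1, 2 and 3, against 698, 655 and 637 CPM in MFP 1, 2 and 3, these were the 4 genes lower in each BrM library than in any MFP library, beside 9.85% of all 7907 genes tested. Their log2 folds were -0.46 (SE 0.16) for Fos, -1.05 (SE 0.24) for Fosb, -0.93 (SE 0.21) for Egr1 and -0.72 (SE 0.15) for Jund. The Jund fold was -0.66 within the lower totals and -0.69 within the higher totals. For Egr1 it was -0.45 within the lower totals and -1.33 within the higher totals. For Fos it was -0.26 within the lower totals and -0.60 within the higher totals. Monocyte-like cells numbered only 27 in MFP 2 and 56 in MFP 1. None of the 10 genes passed the adjusted threshold, where 0.228% of all genes were lower and 0.0632% higher.

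Macrophage-like cells (5794 cells) could be compared in 3 BrM and 2 MFP libraries, since MFP 2 had 14. Fos had 1054, 875 and 928 CPM in BrM 1, 2 and 3, against 1902 and 1262 CPM in MFP 1 and 3. Fosb had 268, 315 and 296 CPM in BrM 1, 2 and 3, against 377 and 526 CPM in MFP 1 and 3. Plk3 had 55.7, 56.3 and 47.6 CPM in BrM 1, 2 and 3, against 168 and 86.9 CPM in MFP 1 and 3. These genes, Jund and Zfp36 did not overlap, 5 of 10 beside 23.2% of all 12268 genes tested, with only 2 libraries for MFP. Zfp36 differed little, with 608, 599.9 and 619.8 CPM in BrM 1, 2 and 3, against 703 and 699 CPM in MFP 1 and 3. Egr1 had 234, 110.4 and 94.7 CPM in BrM 1, 2 and 3, against 216 and 356 CPM in MFP 1 and 3, and BrM 1 lay above MFP 1. The log2 folds were -0.56 (SE 0.18) for Fos, -0.47 (SE 0.20) for Fosb, -0.92 (SE 0.24) for Plk3 and -0.99 (SE 0.33) for Egr1. Within the higher totals the fold was -0.33 for Fos and -1.64 for Egr1, and the lower totals gave no value. None of the 10 passed the adjusted threshold, where 1.81% of all genes were lower. In cDC2-like cells MFP 3 was the only MFP library with 20 cells, so its folds, of which Egr1 was the most negative at -2.08, rest on 1 library.

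Microglia-like cells, the resident macrophages of the brain, reached 20 cells only in BrM 2 and BrM 3. There Egr1 had 674 and 570.4 CPM, Fos 974 and 963 CPM and Fosb 128 and 89.7 CPM. Egr1 in the macrophage-like cells of the same libraries had 110.4 and 94.7 CPM, while Fos had 875 and 928 CPM. Neutrophil-like cells reached 20 cells in BrM 2, BrM 3 and MFP 3, with no replicate for MFP. Egr1 had 867 and 1184 CPM in BrM 2 and 3, against 2774 CPM in MFP 3. Fos had 506 and 497 CPM in BrM 2 and 3, against 1735 CPM in MFP 3. Zfp36, in contrast, had 1528 and 2185 CPM in BrM 2 and 3, against 1744 CPM in MFP 3. Of the 3, Zfp36 alone had MFP 3 between the BrM libraries.

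The order of the mean levels over classes, a description over all libraries with at least 20 cells of the class, differed between the genes. Fos was highest in macrophage-like cells at 1204 ± 418 CPM (SD, n = 5) and monocyte-like cells at 1195 ± 260.4 CPM (SD, n = 6), which did not differ beyond their spread. It was lowest in CD8 T-like cells at 119.9 ± 16.7 CPM (SD, n = 6), next to Treg-like cells at 134 ± 95.8 CPM (SD, n = 6). That order turned by site, since each Treg-like value in BrM lay below each CD8 T-like value in BrM, while in MFP each Treg-like value lay above. Jund was highest in B-like cells at 2147 ± 888 CPM (SD, n = 6). Zfp36 was highest in neutrophil-like cells at 1819 ± 335 CPM (SD, n = 3) and monocyte-like cells at 922 ± 138 CPM (SD, n = 6), and lowest in CD8 T-like cells at 79.7 ± 19.3 CPM (SD, n = 6). Egr1 was highest in neutrophil-like cells at 1609 ± 1022 CPM (SD, n = 3) and microglia-like cells at 622 ± 73.1 CPM (SD, n = 2), then macrophage-like cells at 202 ± 106 CPM (SD, n = 5). Fosl2 had its low end in B-like cells at 52.2 ± 41.6 CPM (SD, n = 6) among the classes with 6 libraries, against 414 ± 30.2 CPM (SD, n = 6) in gamma-delta T-like cells.

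Classes were compared within libraries, with the library as a block, in edgeR's quasi-likelihood test over all genes. These contrasts set classes against each other and not the sites. They pool the sites, and whether a fold differs between the sites was not tested. The first 6 share the CD4 conventional T-like sums as their base, so they are not independent of each other. In Treg-like over CD4 conventional T-like cells, 7 of the 10 genes were lower and 1 higher, beside 13.7% lower and 13.2% higher of all 8884 genes. Fosb fell with a log2 fold of -0.77 (SE 0.11, adjusted p = 1.7e-05). Egr1 fell with -0.82 (SE 0.13, adjusted p = 1.3e-04). Fosl2, Fos and Plk3 fell with -0.61 (SE 0.09, adjusted p = 4.2e-05), -0.60 (SE 0.13, adjusted p = 0.0023) and -0.57 (SE 0.13, adjusted p = 0.0027). Zfp36, the mRNA-destabilising gene, moved the other way at 0.44 (SE 0.12, adjusted p = 0.010). Jun and Junb passed at -0.33 and -0.25. Leaving out any of BrM 1, MFP 1, BrM 2 or MFP 2 ended the call of Jun, leaving out BrM 1 or MFP 1 that of Zfp36, and leaving out BrM 2 or BrM 3 that of Junb. Without the library block 0 of the 10 passed.

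In CD8 T-like over CD4 conventional T-like cells 5 genes fell and 0 rose, beside 16.1% and 15.5% of all 11075 genes. Plk3 fell with -1.16 (SE 0.11, adjusted p = 6.3e-06). Junb fell with -0.66 (SE 0.08, adjusted p = 6.6e-05), and Jund with -0.50 (SE 0.10, adjusted p = 0.0020). Fosb, at -0.52 (SE 0.16, adjusted p = 0.022), lost the call without any of the 3 MFP libraries, and Zfp36, at -0.36 (SE 0.10, adjusted p = 0.017), without MFP 1. In the CPM values given above, the Fosb gap between these classes was wide in every MFP library. It was smaller in every BrM library, and in BrM 3 the CD8 T-like value lay just above the CD4 conventional T-like value. The pooled Fosb fold thus came mainly from the MFP libraries. Jun was on the other side at 0.42 (SE 0.17, adjusted p = 0.080) and did not pass.

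In gamma-delta T-like over CD4 conventional T-like cells 4 genes rose and 1 fell, beside 9.53% and 9.60% of all 9594 genes. Jun rose with 1.26 (SE 0.14, adjusted p = 5.0e-05), Fos with 0.86 (SE 0.21, adjusted p = 0.012), Fosl2 with 0.52 (SE 0.12, adjusted p = 0.0074) and Ier2 with 0.49 (SE 0.08, adjusted p = 9.9e-04). By the CPM values given above, the Fos gap was wide in every BrM library. It was small in MFP 1 and MFP 2, and in MFP 3 the gamma-delta T-like value lay below the CD4 conventional T-like value. Jund fell with -0.37 (SE 0.09, adjusted p = 0.014), a call lost without MFP 1 or without MFP 2. In NK-like over CD4 conventional T-like cells 5 genes rose and 1 fell, beside 21.9% and 23.8% of all 10752 genes. Jun rose with 1.22 (SE 0.18, adjusted p = 1.3e-04) and Ier2 with 0.64 (SE 0.07, adjusted p = 9.8e-06). Plk3 fell with -1.51 (SE 0.13, adjusted p = 2.1e-06). Fosl2 and Egr1 rose with 0.48 (SE 0.14, adjusted p = 0.013) and 0.55 (SE 0.16, adjusted p = 0.015), and Egr1 missed the threshold without BrM 1. Zfp36, at 0.31 (SE 0.12, adjusted p = 0.049), missed it without BrM 1, MFP 1, BrM 2 or BrM 3.

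In B-like over CD4 conventional T-like cells 4 genes rose and 4 fell, beside 21.4% and 28.7% of all 9121 genes. Zfp36 rose with 1.58 (SE 0.14, adjusted p = 4.5e-08) and Jund with 1.29 (SE 0.15, adjusted p = 1.1e-06). Fosl2 fell with -2.72 (SE 0.29, adjusted p = 5.7e-07) and Plk3 with -1.81 (SE 0.24, adjusted p = 8.4e-06). Jun and Ier2 also rose, with 0.76 and 0.52. Egr1 and Junb fell, with -0.78 and -0.44, and Egr1 lost the call without MFP 1.

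In monocyte-like over CD4 conventional T-like cells 5 genes rose and 2 fell, beside 28.6% and 33.9% of all 10642 genes, whose median log2 fold was -0.13. Zfp36 rose with 3.19 (SE 0.14, adjusted p = 1.6e-10) and Fos with 3.03 (SE 0.18, adjusted p = 3.1e-09). Jun and Fosb rose with 1.82 (SE 0.17, adjusted p = 4.0e-07) and 1.06 (SE 0.17, adjusted p = 1.1e-04). Egr1, at 0.30 (SE 0.11, adjusted p = 0.031), lost the call without BrM 2, BrM 3 or MFP 3. Jund fell with -0.64 (SE 0.09, adjusted p = 2.6e-05) and Junb with -0.44 (SE 0.10, adjusted p = 0.0022). Within the JUN family Jun was thus higher and Junb and Jund lower in monocyte-like cells. In macrophage-like over monocyte-like cells 3 genes rose and 5 fell, beside 14.5% and 16.4% of all 10051 genes. Egr1, Plk3 and Fosb rose with 0.80 (SE 0.13, adjusted p = 5.6e-04), 0.70 (SE 0.16, adjusted p = 0.0060) and 0.59 (SE 0.13, adjusted p = 0.0035). Fosl2 and Zfp36 fell with -0.86 (SE 0.14, adjusted p = 4.5e-04) and -0.45 (SE 0.09, adjusted p = 0.0018). Ier2, Jund and Junb fell with -0.54, -0.43 and -0.28. Without BrM 3 these 3 lost their calls, and Junb did so also without BrM 2 or MFP 3 and Jund without MFP 3.

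**Figure D4:**
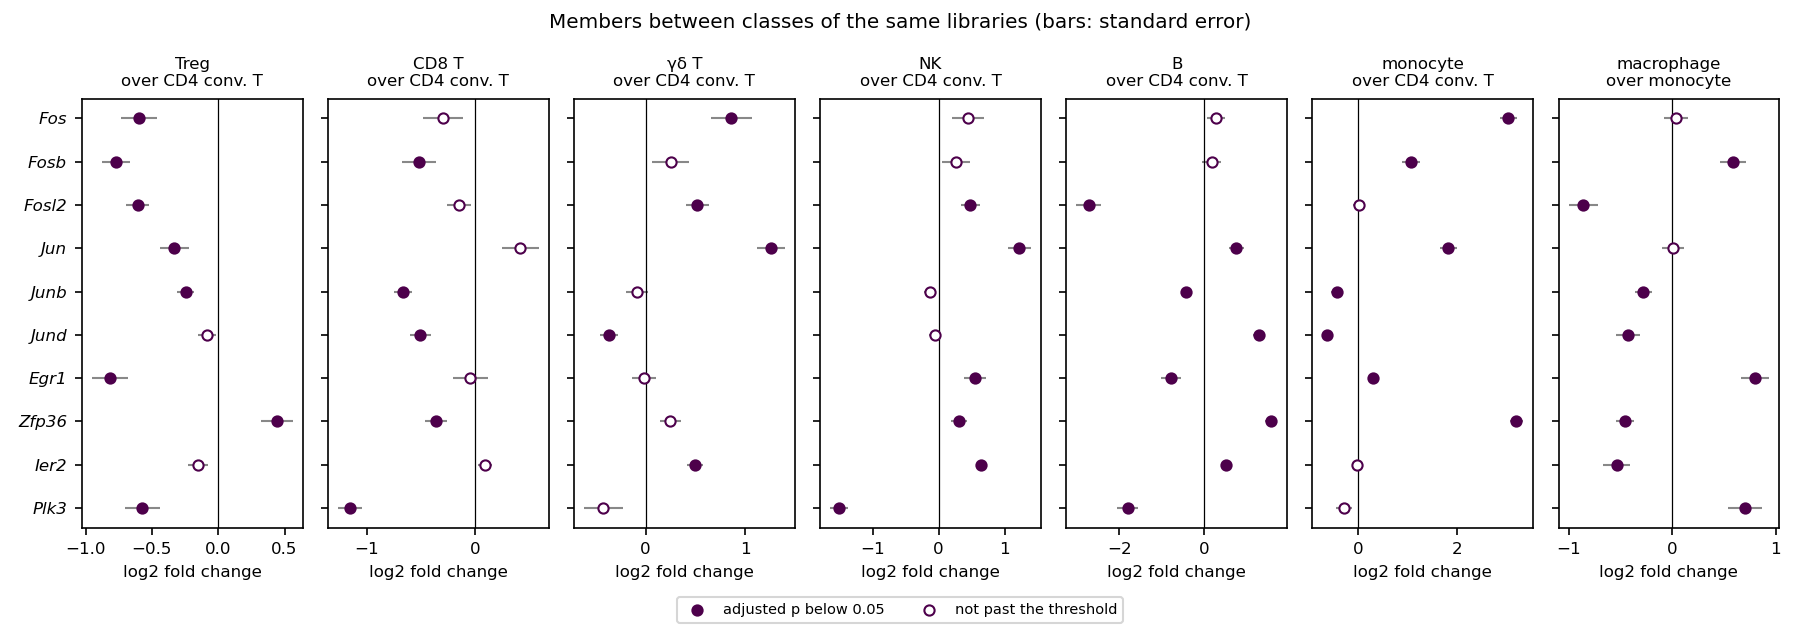
Log2 fold change with its SE for the 10 genes in 7 comparisons of classes within libraries (edgeR with the library as a block); filled points have an adjusted p below 0.05. Jun, Fos and Zfp36 reach 1.82, 3.03 and 3.19 in monocyte-like over CD4 conventional T-like cells, while 7 genes are lower in Treg-like than in CD4 conventional T-like cells.

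Other genes of the same response were described from 4 further lists. These lists too were drawn up with earlier results of these data known, so their BrM over MFP counts and adjusted p-values are descriptions and no independent evidence of a direction. In Treg-like cells, 14 of 35 other immediate-early and feedback genes fell in BrM and 0 rose, beside 1.54% lower and 3.42% higher of all genes tested. Their median log2 fold was -0.65. Rgs16, which damps G protein signalling, had 145, 101 and 63.4 CPM in BrM 1, 2 and 3, against 394, 373 and 394 CPM in MFP 1, 2 and 3, a log2 fold of -1.77 (SE 0.23, adjusted p = 0.0044). Nr4a3, an orphan nuclear receptor induced by T cell receptor signals, had 111, 112 and 108 CPM in BrM 1, 2 and 3, against 253, 289 and 339 CPM in MFP 1, 2 and 3, a fold of -1.31 (SE 0.18, adjusted p = 0.0044). In both genes the sites were well apart. Nfkbid, an atypical IκB protein, and Per1, a circadian repressor, fell with -1.27 (SE 0.21, adjusted p = 0.017) and -1.38 (SE 0.33, adjusted p = 0.037). The count was also 14 with the RLE scaling and within the higher totals, and 15 with DESeq2, but it fell to 2 with the replicate number as a block, to 4 with a term for the library set, to 0 with stricter gates and to 2 without the deepest 10% of cells. It was 20 without BrM 1, 4 without MFP 1, 3 without BrM 3, 2 without BrM 2 or without MFP 2, and 1 without MFP 3. The calls over all genes ranged between 5 and 1156 when single libraries were left out. The median stayed between -0.40 and -0.78 over these settings. Rgs16 passed in 14 and Nr4a3 in 13 of 15 alternatives.

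In CD4 conventional T-like cells the same list had a median of -0.39, and 38 of 40 folds were negative. edgeR called 0 of them, 18 had an unadjusted p below 0.05 and DESeq2 called 8, all lower. In NK-like cells the median was -0.07 with 0 called, beside 4 at an unadjusted p below 0.05 (DESeq2 called 1, lower).

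Among the other AP-1 and bZIP genes 1 of 15 fell in BrM Treg-like cells and 0 rose. It was Jdp2, a repressor that pairs with JUN proteins, at a log2 fold of -1.25 (SE 0.33, adjusted p = 0.047), named here after its value was seen, and DESeq2 called 0. In gamma-delta T-like cells 1 of 15 rose and 0 fell, beside 0.115% higher of all genes. It was Atf3, a stress-inducible bZIP factor, with 87.3, 55.1 and 65.9 CPM in BrM 1, 2 and 3, against 19.6, 17.3 and 41.7 CPM in MFP 1, 2 and 3 and a log2 fold of 1.60 (SE 0.29, adjusted p = 0.047). Dusp2, a phosphatase that inactivates MAP kinases, fell there with -1.01 (SE 0.17, adjusted p = 0.038). In monocyte-like cells Batf3, the bZIP partner of JUN proteins in dendritic cells, had 28.2, 27.6 and 35.1 CPM in BrM 1, 2 and 3, against 73.8, 82.9 and 73.0 CPM in MFP 1, 2 and 3 and fell with -1.24 (SE 0.20, adjusted p = 0.033). These passed in 8, 9 and 9 of 15 alternatives for Atf3, Dusp2 and Batf3.

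In macrophage-like cells 3 of 40 other immediate-early and feedback genes fell and 1 rose, beside 1.81% lower and 0.88% higher of all genes. Egr2 and Egr3, relatives of Egr1, fell with -2.00 (SE 0.16, adjusted p = 1.5e-04) and -1.34 (SE 0.27, adjusted p = 0.024). Egr2 had 15.9, 9.49 and 8.64 CPM in BrM 1, 2 and 3, against 37.4 and 41.8 CPM in MFP 1 and 3. Klf2, a quiescence factor, fell with -1.12 (SE 0.26, adjusted p = 0.041), and Dusp2 rose with 0.95 (SE 0.20, adjusted p = 0.027). Egr2, Egr3, Klf2 and Dusp2 passed in 10, 9, 9 and 8 of 13 alternatives, and DESeq2 called 0 of the list. Among the 23 MAP kinase and serum response factor genes tested, Rps6ka3, a ribosomal S6 kinase, fell with -0.79 (SE 0.16, adjusted p = 0.027) and passed in 8 of 13 alternatives. In Treg-like and CD4 conventional T-like cells 0 of the 18 and 0 of the 22 tested genes of that list passed, beside 4 and 1 at an unadjusted p below 0.05, and DESeq2 called 0 of either.

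Heat shock and other chaperone genes are also known to be induced by handling of tissue. In Treg-like cells 4 of 13 chaperone genes rose in BrM and 0 fell, beside 3.42% higher of all genes, with a median log2 fold of 0.45. Hspd1, the mitochondrial chaperonin, had 256, 358 and 501 CPM in BrM 1, 2 and 3, against 148, 109.8 and 148 CPM in MFP 1, 2 and 3, a log2 fold of 1.54 (SE 0.25, adjusted p = 0.017). The summed level of the list was 7635 to 10525 CPM in BrM and 6279 to 6734 CPM in MFP in Treg-like cells. It was 7957 to 9023 CPM in BrM and 6697 to 7577 CPM in MFP in CD4 conventional T-like cells. It was 8105 to 9657 CPM in BrM and 7380.5 to 8052 CPM in MFP in CD8 T-like cells and 8724 to 10537 CPM in BrM and 7181 to 7957 CPM in MFP in NK-like cells. In these 4 classes the chaperone sums were thus higher in each BrM library than in any MFP library, whether the summed levels of the 10 genes were apart (Treg-like and CD4 conventional T-like cells) or overlapped (CD8 T-like and NK-like cells). In monocyte-like cells the chaperone sums overlapped at 8088 to 9142 CPM in BrM and 7141 to 10214 CPM in MFP, while the sums of the 10 genes were 5019 to 5734 CPM in BrM and 6449 to 7004 CPM in MFP. In macrophage-like cells the chaperone sums also overlapped, at 7146 to 8059.6 CPM in BrM and 7072 to 7343 CPM in MFP, while the sums of the 10 genes were 4233 to 5468 CPM in BrM and 5831 to 6624 CPM in MFP. In gamma-delta T-like cells the chaperone sums were apart, at 8631 to 9682 CPM in BrM and 7304 to 7786 CPM in MFP. There the sums of the 10 genes overlapped, at 4437 to 6133 CPM in BrM and 4496 to 6127 CPM in MFP. The count of 4 in Treg-like cells ranged between 0 and 5 over the alternatives. It was 5 without BrM 1, 1 without MFP 1 or without BrM 3, and 0 without BrM 2, without MFP 2 or without MFP 3. Over all genes, those fits called between 5 and 1156. What part dissociation had in either set of genes was not tested.

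Between classes the other lists followed no single direction. In Treg-like over CD4 conventional T-like cells, 18 of 40 other immediate-early and feedback genes were lower and 6 higher, beside 13.7% lower and 13.2% higher of all genes, so that the higher count was near the share of all genes. Dusp6, a phosphatase of the kinase ERK, fell with -2.34 (SE 0.29, adjusted p = 4.7e-06), Egr2 with -1.92 (SE 0.37, adjusted p = 5.8e-04) and Egr3 with -1.74 (SE 0.34, adjusted p = 7.2e-04). Spry1, an inhibitor of receptor kinase signalling, fell with -1.75 (SE 0.24, adjusted p = 1.4e-05), and the inducible chaperone Hspa1a with -1.77 (SE 0.16, adjusted p = 1.5e-07). In all, 7 of 13 chaperone genes were lower in Treg-like cells and 0 higher, beside the same shares. In monocyte-like over CD4 conventional T-like cells, 13 of 20 other AP-1 and bZIP genes rose and 4 fell, beside 28.6% higher and 33.9% lower of all genes. In NK-like over CD4 conventional T-like cells the Sprouty genes parted, with Spry2 at 5.82 (SE 0.13, adjusted p = 1.4e-11) and Spry1 at -5.36 (SE 0.22, adjusted p = 2.1e-09).

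**Figure D5:**
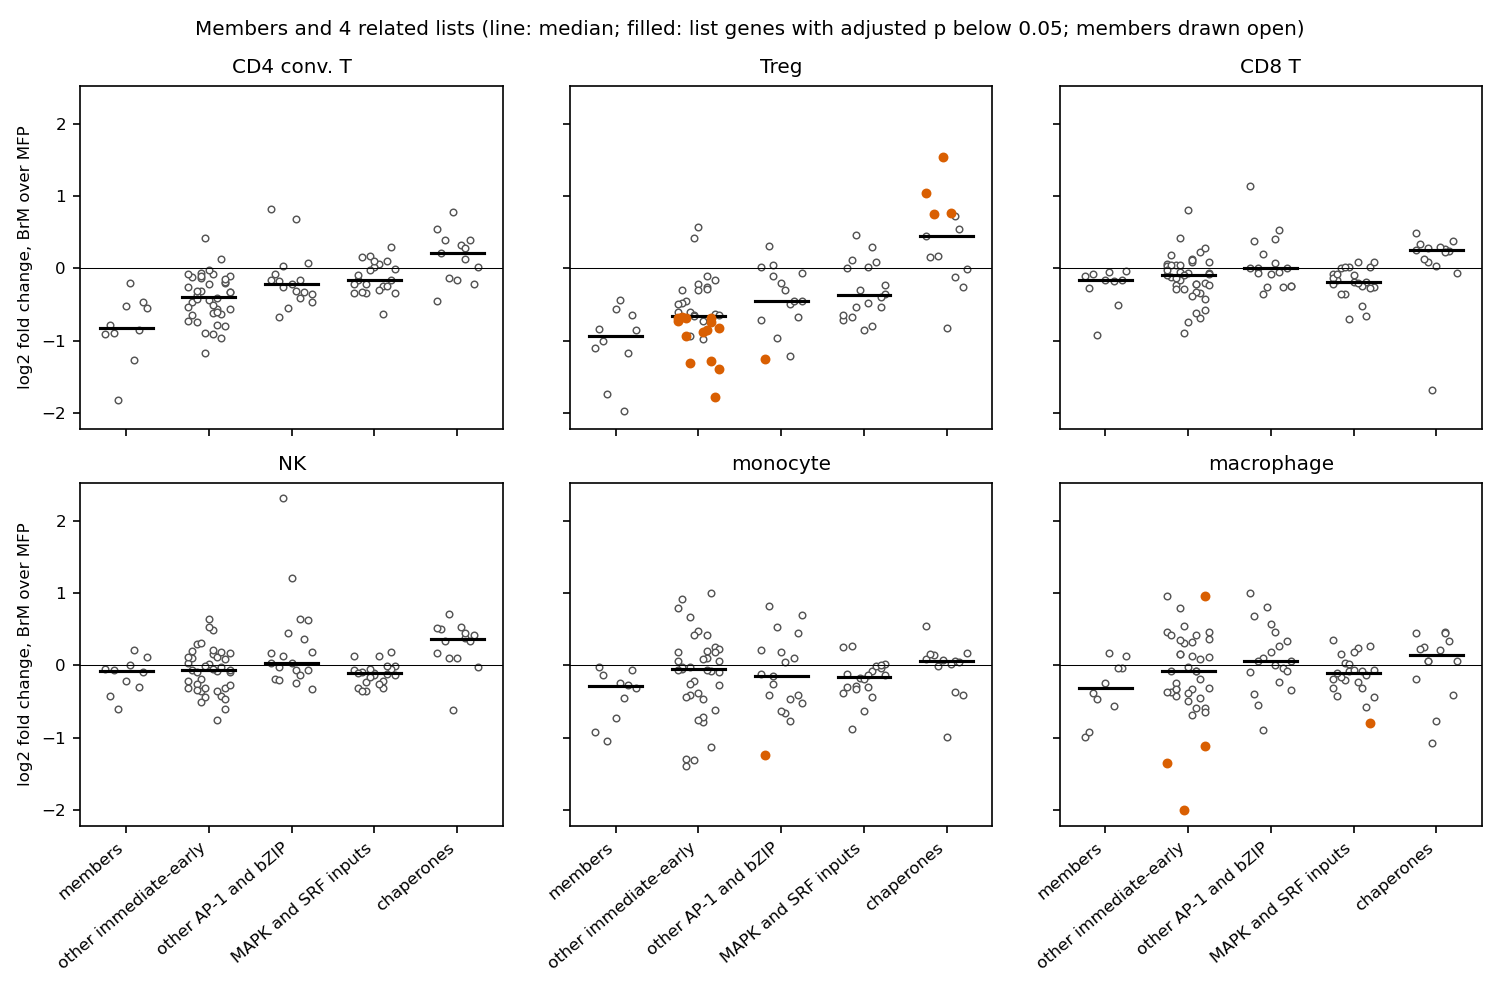
Log2 fold change, BrM over MFP, of the 10 genes and of 4 other lists in 6 classes, with 1 point per gene, a line at the median and filled points for genes of the other lists with an adjusted p below 0.05 (the 10 genes are drawn open). In Treg-like cells the medians are -0.93 for the 10 genes, -0.65 for the other immediate-early and feedback genes and 0.45 for the chaperones.

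Over 65 points, each a class in a library with at least 20 cells, the genes whose pattern was most like the mean pattern of the 10 were sought among 7547 genes by Pearson's r of log2(CPM + 5). They were Dusp1 (r = 0.836), a phosphatase that inactivates MAP kinases and itself an immediate-early gene, Gm34455 (0.807), Card19 (0.800), Ccnl1 (0.800) and Cpeb2 (0.787). The points share libraries and classes, so these values are a description. Dusp1 fell in BrM Treg-like cells with the list above, at a log2 fold of -0.88 (SE 0.21, adjusted p = 0.039).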

How the data were processed

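The authors deposited UMI counts for each gene in each cell barcode, without normalization. Cell Ranger 4.0 and mouse build mm10 are named in the submitters' processing notes; no annotation release is given in the sources used here. The 10 genes and all lists were chosen with earlier results of these data known. Groups came from the labels.

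Of 49518 barcodes 46891 were kept, those with 500 UMIs or more, 200 genes or more and no more than 10% of UMIs from mitochondrial genes; pairs of libraries shared 10 to 39 barcode sequences. Cells were gated by marker UMIs. For example, CD4 conventional T-like cells had at least 2 Cd3 UMIs and 1 Cd4 UMI and 0 UMIs of Cd8, Foxp3, Trdc and NK genes. The gate thresholds were set after cell numbers were seen and without regard to the 10 genes; Tmem119 was dropped from the microglia gate because MFP macrophages carried it. No doublet caller was run: 1321 cells that entered gates of more than 1 lineage were left out, 14510 entered none, and leaving out the 10% of cells with the most UMIs was an alternative.

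UMIs were summed per library and class where a library had at least 20 cells. The test was edgeR's quasi-likelihood test (edgeR 4.0.16, R 4.3.3; TMM scaling, filterByExpr, Benjamini-Hochberg adjustment over all genes tested, threshold 0.05). Classes were compared with the library as a block. The SE is the absolute log2 fold divided by the square root of F. DESeq2 1.42.0 was an alternative. The fits were checked on simulated counts. Named genes were the 10, up to 5 from the other lists per comparison with the largest change past the threshold, and the 5 most alike in pattern (log2 of CPM plus 5, mean of at least 10 CPM). Depth per class and library ranged between 169847 and 33274083 UMIs, so shares and sums of small classes are the least precise; shares of cells carry counting error only. Coordinates of promoters are from RefSeq on GRCm38.p6. A division of T cells by further markers and 1 listed gene are not reported here.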

Additional observations from a re-analysis of the deposited data

How the results depend on the processing

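The direction of the 10 genes, BrM over MFP, changed under no alternative in CD4 conventional T-like and Treg-like cells (0 of 150 combinations each). It changed in 17 of 150 in CD8 T-like, 15 of 150 in gamma-delta T-like, 16 of 150 in NK-like, 5 of 135 in B-like, 12 of 150 in monocyte-like, 7 of 130 in macrophage-like and 3 of 90 in cDC2-like cells, mostly for folds near 0. The NK-like fold of Fos, 0.21, was -0.29 within the lower totals. In CD4 conventional T-like and Treg-like cells 9 and 10 of the genes did not overlap between the sites. A change of direction was hardly possible there. How many genes passed the threshold depended far more on the setting, and the cause was not tested. In CD4 conventional T-like cells the count was 1, and 188 with DESeq2, 9 with RLE scaling, 527 with no filter on low counts, 137 with a term for the library set, 627 and 931 within the lower and the higher totals, 2 with stricter gates and 0 to 1480 leaving out single libraries. In Treg-like cells it was 322, and 765 with no filter, 67 with the set term, 55 and 951 within the lower and the higher totals, 1 with stricter gates, 4 without the deepest 10% of cells and 5 to 1156 leaving out libraries. In CD8 T-like cells it was 0, and 1 with DESeq2, no filter or the set term, 546 and 7 within the totals and 0 leaving out any library. In gamma-delta T-like cells it was 35, and 89 with DESeq2, 412 with no filter, 795 with the set term, 1008 and 396 within the totals, 11 with stricter gates, 10 without the deepest cells and 0 to 108 leaving out libraries. In NK-like cells it was 0, and 30 with DESeq2, 32 with the set term, 642 and 341 within the totals and 0 to 314 leaving out libraries. In B-like cells it was 0, and 74 with no filter, 2 with the set term, 50 and 122 within the totals and 0 to 443 leaving out libraries. In monocyte-like cells it was 23, and 55 with DESeq2, 425 with no filter, 233 with the set term, 76 and 796 within the totals, 13 with stricter gates, 6 without the deepest cells and 0 to 127 leaving out libraries. In macrophage-like cells it was 330, and 4 with DESeq2, 909 with no filter, 836 with the set term, 2736 within the higher totals, 711 without the deepest cells and 2 to 824 leaving out libraries. In cDC2-like cells it was 1, and 51 with no filter, 301 with the set term, 293 within the higher totals, 269 without the deepest cells and 4 to 293 leaving out libraries. A site reduced to 1 library is assumed to vary like the other. Macrophage-like cells gave no value within the lower totals or without MFP 2, and cDC2-like cells none for the replicate block, stricter gates, the lower totals or without an MFP library.

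With the replicate number as a block the counts were 4 in CD4 conventional T-like, 12 in Treg-like, 216 in gamma-delta T-like, 146 in macrophage-like, 56 in monocyte-like and 40 in B-like cells. The numbers were not taken as pairs, since the labels do not call them so. The correlation of the deviations of same-numbered libraries was negative for replicate 2 in each of the 7 classes with 6 libraries. In CD4 conventional T-like cells it was 0.126, -0.206 and 0.243 for replicates 1, 2 and 3, and in NK-like cells 0.614, -0.379 and 0.410. BrM 2 and MFP 2 lie in different sets of libraries and the other numbers do not, so these correlations cannot decide whether the numbers are pairs.

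Between classes, leaving the library block out gave 962, 1935, 1086, 3224 and 1842 genes, and 0, 3, 2, 3 and 3 of the 10, for Treg-like, CD8 T-like, gamma-delta T-like and NK-like over CD4 conventional T-like and for macrophage-like over monocyte-like cells. The 10 without the block in B-like and monocyte-like over CD4 conventional T-like cells had 7 and 6 calls. Without the deepest cells 5 of the 10 passed in Treg-like over CD4 conventional T-like cells. The counts of 7, 6 and 5 stand without the share of all genes called at the same setting, so nothing is read from them. Leaving out single libraries gave 3 to 7 of the 10 and 2585 to 3367 genes in CD8 T-like over CD4 conventional T-like cells. It gave 5 to 8 of the 10 and 1802 to 3222 genes in macrophage-like over monocyte-like cells. Classes with under 100 cells in a library set the limit of precision.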
